A study of Mus musculus with 6 samples.

Results

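The 87 genes described here encode the cell's matrix receptors and the matrix they bind: 26 integrin subunits, 11 laminin chains, 44 collagen chains, both nidogens, fibronectin, perlecan and the tenascins Tnc and Tnr. They were taken by symbol from 21900 protein-coding genes of the mouse (mm10, RefSeq). The symbols alone decided membership, but this group of genes was chosen with earlier results of these data known. AGO2, the Argonaute protein that carries miRNAs, was immunoprecipitated with its bound RNA from P0 mouse brain (postnatal day 0), and chimeric eCLIP joined part of the miRNAs to the RNA they were bound to. One WT library and 2 Mov10 Deletion libraries had files, and the 3 size-matched inputs enter only through the ratios the authors deposited. Both groups were on the C57Bl/6J background. Mov10 Deletion mice carried a floxed Mov10 allele (exons 6 and 7), recombined by Emx1-Cre in excitatory neurons of neocortex and hippocampus, together with a Mov10 mutant allele. Because whole brain was used, cells outside the Emx1 lineage kept 1 intact allele. With 1 WT library, no difference between genotypes can be tested, and fewer cells of a type and less RNA per cell cannot be told apart.

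Integrins are αβ heterodimers that link the matrix to the cytoskeleton. Laminins are αβγ trimers that join collagen IV, nidogen and perlecan in basement membranes, which in brain lie at the pial surface and around vessels. The tenascins are glycoproteins of the parenchymal matrix. AGO2 finds target RNAs by pairing the miRNA seed, bases 2 to 8, usually with a site in the 3'UTR. miR-124-3p and miR-9 are abundant neural miRNAs, and the miR-29 family is known for targeting collagen transcripts.

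The miRNAs that carry the results on these genes are printed here from RefSeq (GRCm38.p6), with the seed in capitals. The 3 miR-29 forms share one seed, as do the let-7 forms, while the miR-101 forms are shifted against each other by a base and so differ in bases 2 to 8.
miR-29a-3p: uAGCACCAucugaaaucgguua
miR-29b-3p: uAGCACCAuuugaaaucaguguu
miR-29c-3p: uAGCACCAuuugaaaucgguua
let-7a-5p: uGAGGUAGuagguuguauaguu
let-7c-5p: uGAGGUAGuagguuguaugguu
miR-9-5p: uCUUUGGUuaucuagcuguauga
miR-9-3p: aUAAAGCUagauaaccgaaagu
miR-101a-3p: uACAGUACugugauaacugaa
miR-101b-3p: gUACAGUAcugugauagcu
miR-101c: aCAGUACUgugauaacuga

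The sites at the gene ends where the libraries met are printed next, 5′ to 3′ on the transcript strand, with the 7-letter match to a seed in capitals. Each was found by searching the last-exon 3'UTR of the gene in GENCODE vM39 (GRCm39), so these coordinates are not those of the clusters, which are in mm10. All lie in the terminal exon, in the 3'UTR. The miR-124-3p match searched was GTGCCTT.
Col4a1, miR-124-3p match, chr8:11249643-11249667, minus strand: aaccataaaGTGCCTTatagggatt
Lamc1, miR-124-3p match, chr1:153094798-153094822, minus strand: cttttcaatGTGCCTTcactttagc
Itgb1, farther from the gene end, miR-124-3p match, chr8:129458793-129458817, plus strand: ggtcacagtGTGCCTTtttaaccct
Itgb1, nearer the gene end, miR-124-3p match, chr8:129459600-129459624, plus strand: ttgttttaaGTGCCTTttcattttg
Itga3, miR-124-3p match, chr11:94935342-94935366, minus strand: cccgatcctGTGCCTTctttgtata
Itgb1, miR-9-3p match, chr8:129459131-129459155, plus strand: ggaaatcttAGCTTTAaaacctgtg
Itgb1, miR-101b-3p match, chr8:129459463-129459487, plus strand: tttcacaaaTACTGTAagctgtcct
Col4a2, miR-9-5p match, chr8:11498587-11498611, plus strand: tttcaaactACCAAAGcaattctgc
Tnc, miR-9-5p match, chr4:63878597-63878621, minus strand: aggatttttACCAAAGcatcaacac
The next 4 are miR-29 matches, TGGTGCT, under an enriched AGO2 cluster in WT, and the last 2 are collagen matches with no AGO2 cluster over them in any library.
Col4a1, miR-29 match, chr8:11249753-11249777, minus strand: gtcacaacaTGGTGCTactcccccc
Col4a2, first miR-29 match, chr8:11498350-11498374, plus strand: aggccacgtTGGTGCTtatccttct
Col4a2, second miR-29 match, chr8:11498521-11498545, plus strand: cacccagctTGGTGCTtactcttaa
Itgb1, miR-29 match, chr8:129459347-129459371, plus strand: tttaattccTGGTGCTcctttatca
Col1a1, miR-29 match, chr11:94843355-94843379, plus strand: aggaatttcTGGTGCTatagaagct
Col3a1, miR-29 match, chr1:45388133-45388157, plus strand: atgtctcaaTGGTGCTataataaat

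An AGO2 cluster is a stretch of mapped reads, given as its log2 ratio of IP over input with a −log10 p. A cluster was called enriched at log2 of at least 3 and −log10 p of at least 3. The libraries held 359172, 616014 and 616005 AGO2 clusters (WT, Mov10 Deletion replicate 1 and replicate 2). Both Mov10 Deletion libraries had nearly the same cluster list: of 2442 clusters in these genes, 2440 had identical coordinates, so positions are not independent between them, while the ratios are. The deposited ratios and p-values were matched to whole reads in 99.25, 99.25 and 95.25% of sampled clusters. With 1 input read, enrichment took at least 16 IP reads in WT, 9 in replicate 1 and 8 in replicate 2, so counts of enriched clusters are not on one scale across libraries. Of the neuron markers, 7 of 7 held a target cluster in each library. Of the 6 radial glia and astrocyte markers it was 4 in each library. Of the 4 oligodendrocyte lineage markers it was 2, 3 and 2 (WT, replicate 1, replicate 2). Of the 6 pericyte and fibroblast markers it was 2, 3 and 2. Of the 6 endothelial markers it was 1 in WT and 2 in each Mov10 Deletion library. Of the 4 microglia markers it was 0, 1 and 0, and of the 4 markers from outside the brain it was 0. Over all protein-coding genes the shares were 28.5, 34.1 and 24.1%. Mov10 itself held 11 clusters in WT, 1 of them enriched, and 9 clusters in each Mov10 Deletion library, 0 of them enriched, which is a measure of AGO2 on its RNA and not of the RNA level.

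In WT, 73 of the 87 genes held an AGO2 cluster, and 79 did in each Mov10 Deletion library. Enriched clusters lay in 10 of 73 genes in WT, against a background of 20.5% of protein-coding genes with a cluster, in 33 of 79 in replicate 1 (background 45.4%) and in 22 of 79 in replicate 2 (background 35.7%). These shares, 13.7, 41.8 and 27.8%, lay below the background in each library, but their Clopper-Pearson intervals contained it. The intervals ran from 6.77 to 23.8% in WT, 30.8 to 53.4% in replicate 1 and 18.3 to 39.1% in replicate 2. The shares thus cannot be told from the background. The genes are long, with a median length of 77142 nt against 17535.5 nt. Both Mov10 Deletion libraries together had 16 of 79 (background 27.0%). Of the genes with a cluster in every library, 8 of 71 were enriched in all 3 (background 16.6%), namely Col4a1, Col4a2, Itga3, Itgb1, Lama1, Lama4, Lamc1 and Tnc. By role, counts are of genes with a cluster (WT, replicate 1, replicate 2), beside the backgrounds of 20.5, 45.4 and 35.7%. Enriched clusters lay in 3 of 38, 17 of 42 and 8 of 42 collagen genes. For integrin genes it was 2 of 19, 8 of 21 and 7 of 21, and for laminin genes 4, 5 and 4 of 10. No enriched cluster was found in any library in 46 genes, among them the nidogens Nid1 and Nid2, which bridge laminin and collagen IV. No AGO2 cluster at all was listed in 6: Col10a1, Col17a1, Itgae, Itgax, Itgb2 and Itgb7.

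**Figure D1:**
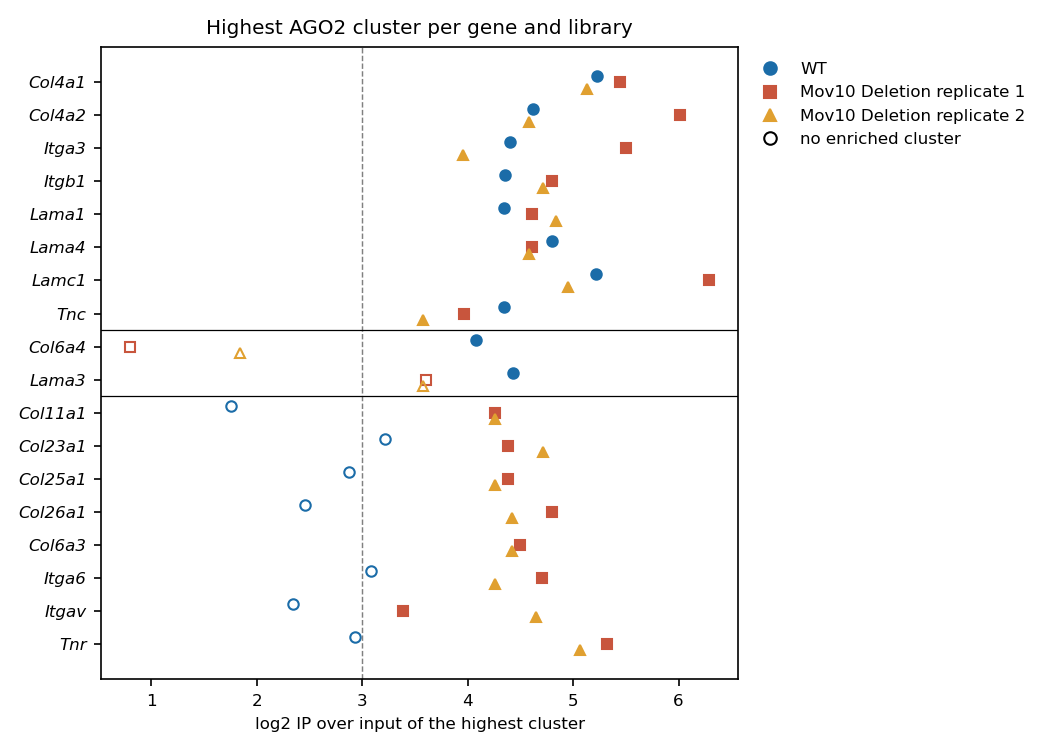
Highest enriched AGO2 cluster (log2 IP over input, x axis, filled points) of 18 genes in each library, or the highest cluster of any kind where the gene had no enriched one (open points); lines separate genes enriched in all 3 libraries, in WT only and in both Mov10 Deletion libraries but not WT. For the genes of the first block, the points of all libraries lie between 3.58 and 6.29.

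In 4 of the 8 genes the libraries met at the same place. At the end of Col4a1, the α1 chain of the collagen IV network, the highest AGO2 cluster had log2 5.23 in WT, 5.45 in replicate 1 and 5.13 in replicate 2. The WT cluster lay at chr8:11199577-11199778 (mm10, minus strand), 1154 nt from the annotated gene end, and the Mov10 Deletion cluster at chr8:11199553-11199727, 1130 nt from it. Its −log10 p was 68.9 and 81.3, and in replicate 1 it stood at 400, where the scale ends. The values lie close together, and no gene of the list had a higher target score. The score, whose definition the sources used here do not give, was listed from 3 upwards. For miR-124-3p it was 109 and 82.9 for the 2 clusters in WT, 143 in replicate 1 and 83.1 in replicate 2. The 7-letter miR-124-3p match printed above lies 1229 nt from the gene end, inside the AGO2 clusters and, of the 2 WT target clusters, inside the one that scored 109. let-7a-5p, let-7c-5p and let-7f-5p were assigned to the same place in all 3 libraries, with let-7c-5p scores of 14.3 and 6.98 in WT, 29.4 in replicate 1 and 8 in replicate 2. No CTACCTC, the 7-letter let-7 match, lies in the terminal 3'UTR of Col4a1.

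In Col4a2, the α2 chain that shares a promoter region with Col4a1 and forms the same trimer, the clusters near the end reached log2 4.61 in WT, 6.01 in replicate 1 and 4.49 in replicate 2. They rested on 58 IP reads over 2 input reads, 74 over 2 and 47 over 5. The 95% intervals of the log2 ratio, which cover counting error only, overlapped: that of replicate 1 ran from 4.10 to 9.08, that of replicate 2 from 3.16 to 6.17, and that of WT up to 7.69. The clusters lay 602 to 712 nt from the gene end, at chr8:11448504-11448575 in WT and chr8:11448518-11448685 in the Mov10 Deletion libraries. miR-9-5p was listed there in WT (score 7.99) and replicate 1 (score 7.08), with its match 685 nt from the end, and let-7 forms in all 3. No miRNA was shared by all 3 libraries, since replicate 2 listed let-7b-5p alone, with a score of 4.

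Lamc1, the γ1 chain of most laminin trimers, held a cluster 77 to 80 nt from its end, at chr1:153219002-153219098 (mm10, minus strand) in WT. Its log2 was 5.22 in WT, 6.29 in replicate 1 and 4.58 in replicate 2, from 44 IP reads over 1 input read, 45 over 1 and 20 over 2. miR-124-3p was the only miRNA listed there, with scores of 36.6, 28.5 and 11.3, and its 7-letter match lies 139 nt from the end. All 3 libraries thus gave one miRNA at one site. A second miR-124-3p place, 1118 nt from the end and outside the terminal 3'UTR of the transcript used, scored 9.92 in WT and 3.14 in replicate 1, with no enriched AGO2 cluster in either. In replicate 2 an AGO2 cluster there was enriched, at log2 3.58, and no miRNA was listed.

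Itgb1, the β1 subunit shared by most integrins of the laminin and collagen receptors, held the most such places. Between 436 and 1273 nt from its end, WT had 6 enriched clusters, replicate 1 had 5 and replicate 2 had 4. At the distal place, with the miR-124-3p match 1252 nt from the end, miR-124-3p scored 23.2 in WT, 15.8 in replicate 1 and 7.03 in replicate 2. The AGO2 cluster over it had log2 3.66 in WT at chr8:128732232-128732358, and 4.80 and 4.71 in the Mov10 Deletion libraries at chr8:128732307-128732356. At 853 to 867 nt from the end, miR-9-3p scored 18.3, 17.8 and 4.80, and miR-124-3p scored 10.3, 5.13 and 12.2. The AGO2 log2 there was 4.27, 4.31 and 4.30, from 114 IP reads over 5 input reads, 80 over 7 and 66 over 8. These ratios differed by far less than their counting intervals, of which that of replicate 2 ran from 3.24 to 5.57. The miR-9-3p match, AGCTTTA, lies within this cluster, and GTGCCTT does not.

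Nearer the end of Itgb1, miR-101a-3p scored 8.48, miR-101b-3p scored 3.31 and miR-101c scored 3.78 in WT, over a cluster of log2 3.97. In replicate 1 only miR-101c was listed, with a score of 4.39 and log2 3.16, and in replicate 2 miR-124-3p was listed with a score of 6.77 at log2 2.97, just under the limit. The miR-101b-3p match lies 582 nt from the end. The last place, 436 to 441 nt from the end, had log2 4.36, 3.69 and 3.91, and miR-124-3p scores of 21.7 in WT and 7.86 in replicate 1. The match nearer the gene end, at 445 nt, lay in a further WT target cluster, with a score of 13.9.

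**Figure D2:**
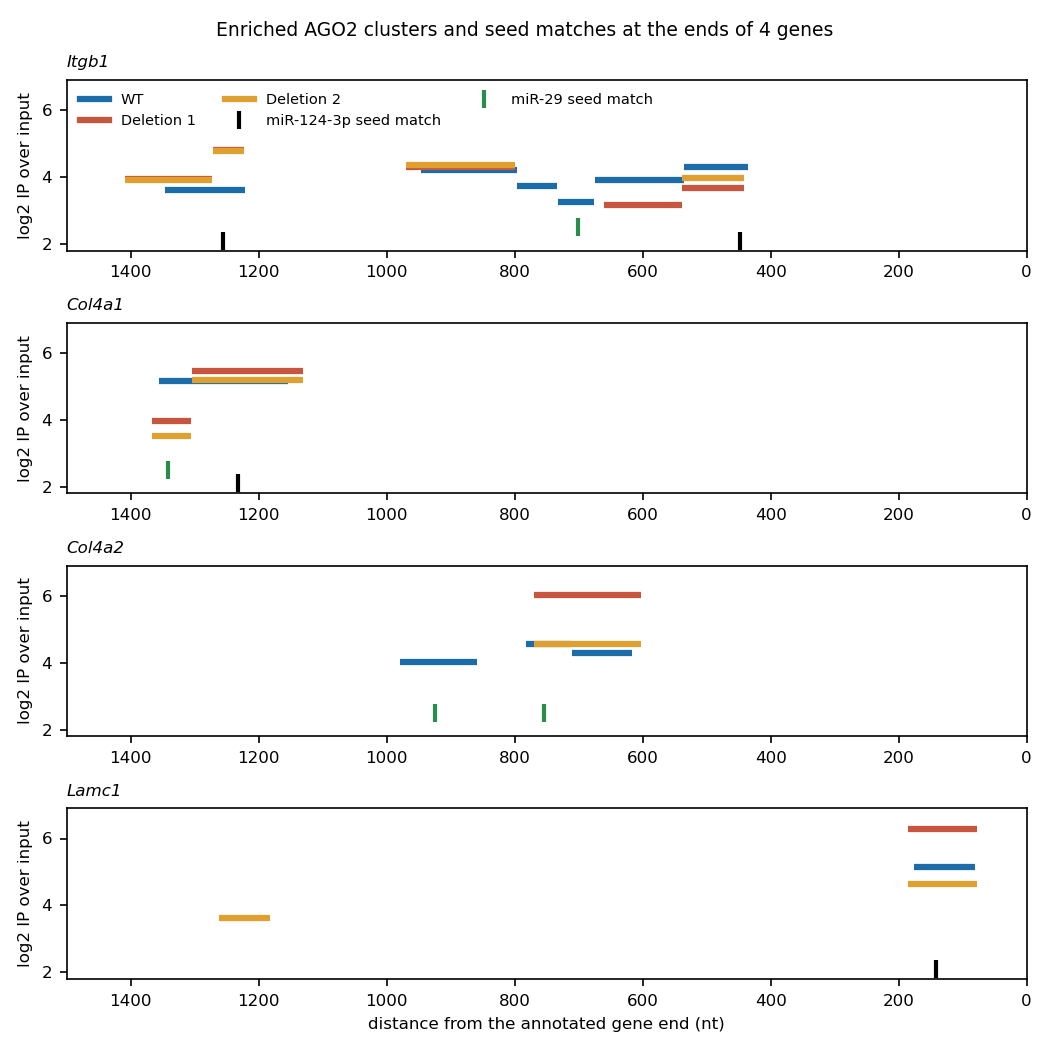
Enriched AGO2 clusters (bars, log2 IP over input, y axis) in the last 1500 nt of Itgb1, Col4a1, Col4a2 and Lamc1 against distance from the annotated gene end (x axis, nt), coloured by library, with ticks at miR-124-3p and miR-29 seed matches; bars are moved up or down by 0.06 so that they can be told apart. Bars of all 3 libraries overlap in each gene.

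By position, both Mov10 Deletion libraries were enriched at 8 shared clusters of these genes, and all 8 overlapped an enriched WT cluster. They lay in Itgb1 (4), Col4a1 (2), Col4a2 (1) and Lamc1 (1), and all within 2000 nt of the gene end. Near the end, 8 of 26 enriched clusters of replicate 1 were enriched at the same position in replicate 2. Farther away it was 0 of 119, and 0 of 56 the other way round. Over all protein-coding genes, 10.9% of the enriched clusters of replicate 1 that lay farther away overlapped an enriched cluster of replicate 2, and 26.3% of those near the end did. From replicate 2 to replicate 1 these shares were 18.2 and 46.1%. At the far positions enriched in replicate 1, the median log2 was 4.12 in replicate 1 and 1.25 in replicate 2. At far positions not enriched in replicate 1, the median in replicate 2 was also 1.25. That is the value of 1 IP read over 1 input read in replicate 2, so the equal medians may only reflect low counts. Over all protein-coding genes these medians were 3.97, 1.25 and 1.25, so the pattern is not particular to these genes. Far positions enriched in replicate 2 had a median of 0.799 in replicate 1, the value of 1 read over 1 there. This lay below the median of far positions not enriched in replicate 2, in these genes and over all protein-coding genes.

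**Figure D3:**
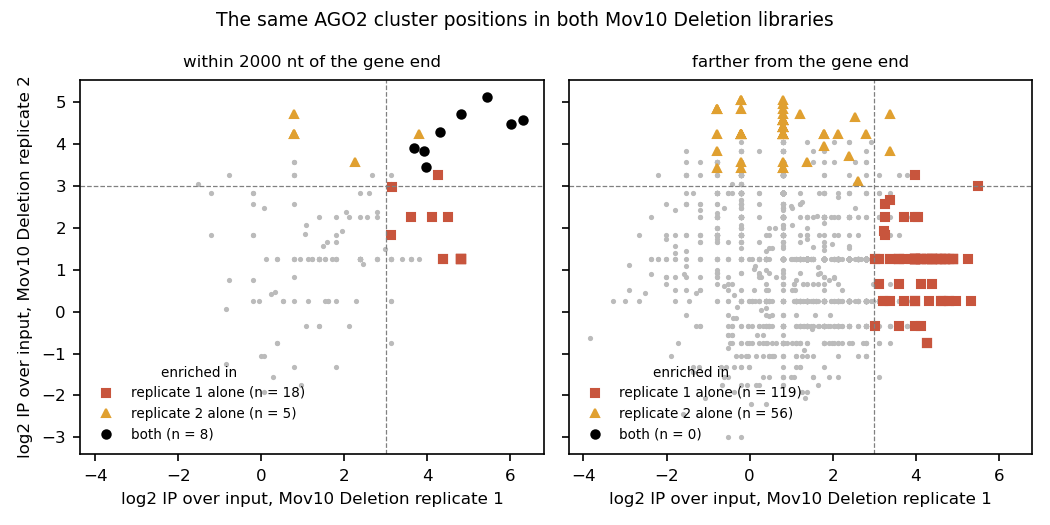
log2 IP over input of AGO2 clusters of the 87 genes at the same position in Mov10 Deletion replicate 1 (x axis) and replicate 2 (y axis), near the gene end (left) and farther (right), with clusters enriched in one or both libraries marked. The 8 clusters enriched in both are all in the left panel.

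In the Mov10 Deletion libraries, the enriched clusters that did not recur rested on few reads. Clusters of replicate 1 that overlapped no enriched cluster of another library numbered 132, had a median of 13 IP reads and had 1 input read in 101 cases, whereas the 13 recurring ones had a median of 59 IP reads. In replicate 2 the medians were 9 and 20, and in WT 24 and 48. The WT ranges overlapped, with 16 to 255 IP reads in clusters that did not recur and 18 to 167 in recurring ones. Many adjoining clusters also carried identical values, such as 10 clusters of Col26a1 within 979 to 1065 nt of its end, each with log2 4.80 from 16 reads over 1. Joining adjoining enriched clusters brought the 27, 145 and 69 enriched clusters down to 20, 91 and 46 regions.

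Some far clusters of the laminin and integrin genes did recur between WT and one Mov10 Deletion library. Lama1, the laminin α1 chain, had a cluster 100118 nt from its end with log2 3.97 in WT (37 IP reads over 2) and 4.05 in replicate 1 (19 over 2). A neighbour at 99712 nt had log2 4.34 in WT and 3.26 in replicate 1, and another, 39714 to 39728 nt from the end, had 3.71 and 3.12. None of the 3 overlapped an enriched cluster of replicate 2. Itga3, the α3 subunit of a laminin receptor, had a cluster at 15835 nt from its end in WT with log2 3.76, which overlapped one of log2 5.50 in replicate 1. Its clusters at 7844 and 16332 nt in WT, with log2 3.93 and 4.40, overlapped clusters of log2 3.13 and 3.95 in replicate 2. In Lama4 the gene was enriched in all 3 libraries, with log2 4.80, 4.61 and 4.58, but at a place of its own in each.

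**Figure D4:**
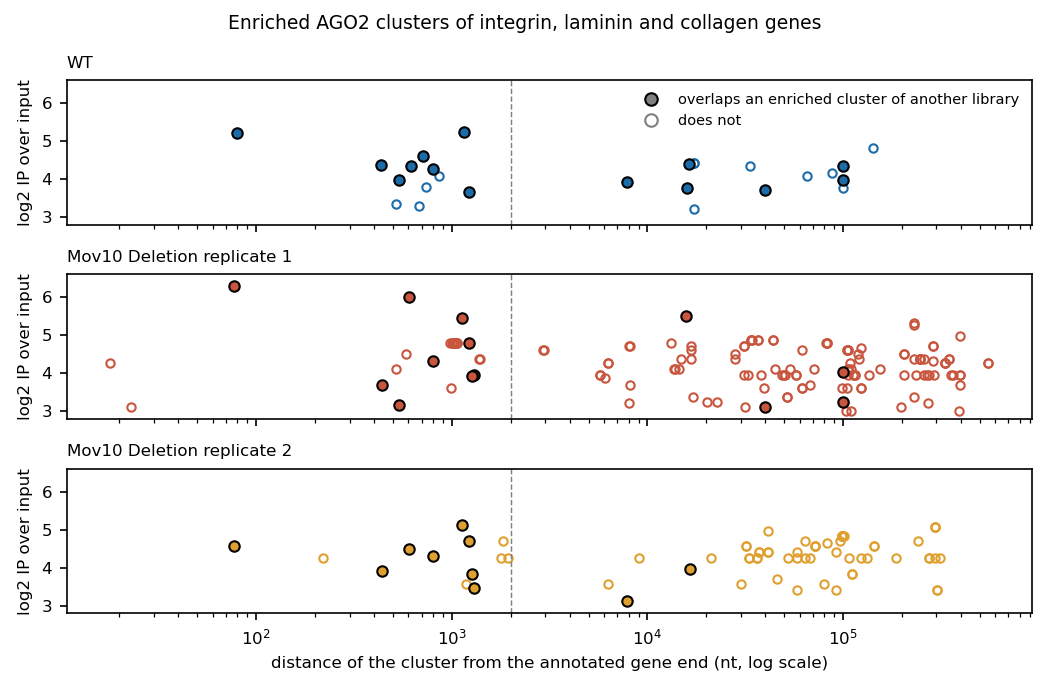
Enriched AGO2 clusters of the 87 genes in each library (rows) by distance from the annotated gene end (x axis, nt, log scale) and log2 IP over input (y axis); filled points overlap an enriched cluster of another library. The dashed line marks 2000 nt, and most filled points of the Mov10 Deletion libraries lie to its left.

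Within 1000 nt of the gene end lay 37.0% of the enriched clusters of these genes in WT (10 of 27, 95% Clopper-Pearson interval 19.4 to 57.6%), against 19.3% for protein-coding genes. In replicate 1 it was 8.28% (12 of 145) against 10.8%, and in replicate 2 it was 7.25% (5 of 69) against 10.6%. Within 2000 nt the shares were 44.4, 17.9 and 18.8%, against 29.0, 17.3 and 16.6%. The clusters gained between 1000 and 2000 nt were 1 of Col4a1 and 1 of Itgb1 in WT. In each Mov10 Deletion library 2 of Col4a1 and 2 of Itgb1 were gained, beside 8 adjoining ones of Col26a1 in replicate 1 and 2 in replicate 2. By the terminal 3'UTR itself, 12 of 25 enriched clusters of WT that could be placed were inside, 24 of 143 in replicate 1 and 9 of 69 in replicate 2. Of target clusters, 38.2, 19.2 and 23.1% lay within 1000 nt (WT, replicate 1, replicate 2). For protein-coding genes the shares were 17.8, 13.2 and 14.4%. Within 2000 nt it was 61.8, 30.8 and 38.5%, against 28.4, 21.8 and 23.3%. The WT intervals, 22.2 to 56.4% and 43.6 to 77.8%, lay above their backgrounds. Those of the Mov10 Deletion libraries contained theirs. Within 500 nt the interval contained the background in each library. Clusters of one gene are not independent, and intervals cover counting error only.

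Split by genotype, 8 of 79 genes (10.1%, background 11.9%) carried enrichment in each Mov10 Deletion library but lacked it in WT: Col11a1, Col23a1, Col25a1, Col26a1, Col6a3, Itga6, Itgav and Tnr. Tnr, tenascin-R of perineuronal nets, was the highest of them, with log2 5.32 in replicate 1, 5.06 in replicate 2 and at most 2.93 in WT. Its 22 and 8 enriched clusters lay between 63628 and 395242 nt from the end of a gene of 408001 nt. Col26a1 had log2 4.80 and 4.42, and 2.46 in WT. Col23a1, a transmembrane collagen, had log2 4.38 and 4.71, and in WT 3.22 without passing the p limit. Col25a1, a transmembrane collagen of neurons, had log2 4.38 and 4.25, and 2.87 in WT. Col6a3 had log2 4.50 and 4.42 and no cluster in WT. In none of the 8 did an enriched cluster of one Mov10 Deletion library overlap one of the other. With at least 16 IP reads asked of each cluster, as WT needed, 1 of the 8 remained, Col25a1. This limit is stricter for the Mov10 Deletion libraries. There 1 IP read over 1 input read gave a ratio of 1.74 (replicate 1) and 2.39 (replicate 2), against 0.845 in WT. Over the same input, 16 reads thus ask a higher ratio of them. With a log2 limit of 2 in place of 3, Col25a1 and Tnr were enriched in WT as well. WT alone was enriched in 2 of 73 genes (2.74%, background 1.11%), Col6a4 and Lama3. Col6a4 rested on 1 cluster of 30 nt with 20 IP reads over 1, and Lama3 on adjoining clusters of 16 and 7 nt with the same values, log2 4.43 from 255 reads over 10.

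The target clusters are those with a miRNA joined to them. They were listed in 15 of the 87 genes in WT (17.2%, background 28.5%), 28 in replicate 1 (32.2%, background 34.1%) and 19 in replicate 2 (21.8%, background 24.1%). The Clopper-Pearson interval of the WT share ran from 9.98 to 26.8%, below the background. The intervals of replicate 1, 22.6 to 43.1%, and replicate 2, 13.7 to 32.0%, contained theirs. The assignments of a miRNA to a cluster numbered 52, 94 and 33. In 50 genes no target cluster was listed in any library, and 8 genes had one in all 3: Col1a1, Col4a1, Col4a2, Itgb1, Lamb1, Lamc1, Tnc and Tnr. Of 14 places with a target cluster in at least 2 libraries, 13 lay within 2000 nt of the gene end, 10 shared a miRNA between the libraries and 8 shared miR-124-3p. The other was in Tnr, whose miR-466f-3p place, 5192 to 5204 nt from the gene end, scored 3.25 in WT and 5.58 in replicate 1. The 14 places came from 8 genes, several of them from Itgb1, so they are not independent. Of the WT target clusters, 14 of 21 near the end and 1 of 13 farther away overlapped one of replicate 1. In protein-coding genes these shares were 49.6 and 37.2%, and most such overlapping clusters lay far from the end (4656, against 2463 near it). In replicate 1, 54 target clusters lay farther than 2000 nt from the end, and 0 of them overlapped one of replicate 2, against 12.1% in protein-coding genes. Lamb1, the laminin β1 chain, had a target in each library, but at different places. They were miR-124-3p in WT, miR-99a-5p in replicate 1 and miR-342-3p in replicate 2, at 44390, 22553 and 157 nt from its end.

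miR-124-3p took 40.4% of the assignments in WT (21 of 52, 95% interval 27.0 to 54.9%), 29.8% in replicate 1 (28 of 94, 20.8 to 40.1%) and 30.3% in replicate 2 (10 of 33, 15.6 to 48.7%). In protein-coding genes it took 43.5, 35.6 and 37.8%, within each interval. Genes with a miR-124-3p target cluster numbered 12 in WT, 18 in replicate 1 and 8 in replicate 2, which is 13.8, 20.7 and 9.20% of the 87, with backgrounds of 20.7, 22.0 and 13.7%. The WT genes were Col1a1, Col25a1, Col4a1, Col4a2, Fn1, Itga3, Itga7, Itgb1, Lama1, Lamb1, Lamc1 and Tnr. Replicate 1 had 18, without Col25a1, Fn1, Itga7, Lama1 and Lamb1 of these, and with Col19a1, Col1a2, Col26a1, Hspg2, Itga6, Itgav, Itgb5, Itgb8, Nid1, Nid2 and Tnc. The 8 of replicate 2 were Col1a1, Col4a1, Hspg2, Itga1, Itga6, Itgb1, Lamc1 and Tnr. miR-9-5p was the next single miRNA, with 7, 9 and 3 assignments, while the let-7 family as a whole had 12, 11 and 6. miR-125b-5p had 3 assignments in replicate 1 and 2 in replicate 2. let-7 forms took 12 of 52 in WT, or 23.1% (12.5 to 36.8%) against 9.28% in protein-coding genes. These 12 stood in 5 clusters of Col4a1, Col4a2, Lamc1 and Tnc, out of 34 WT target clusters. A cluster counts once per let-7 form, so the assignments are not independent and the interval is too narrow. Of the let-7 target clusters in terminal 3'UTRs, 0 of 3 in WT, 0 of 4 in replicate 1 and 0 of 2 in replicate 2 held the let-7 match. In the Mov10 Deletion libraries let-7 took 11.7 and 18.2%, against 9.39 and 8.27%.

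**Figure D5:**
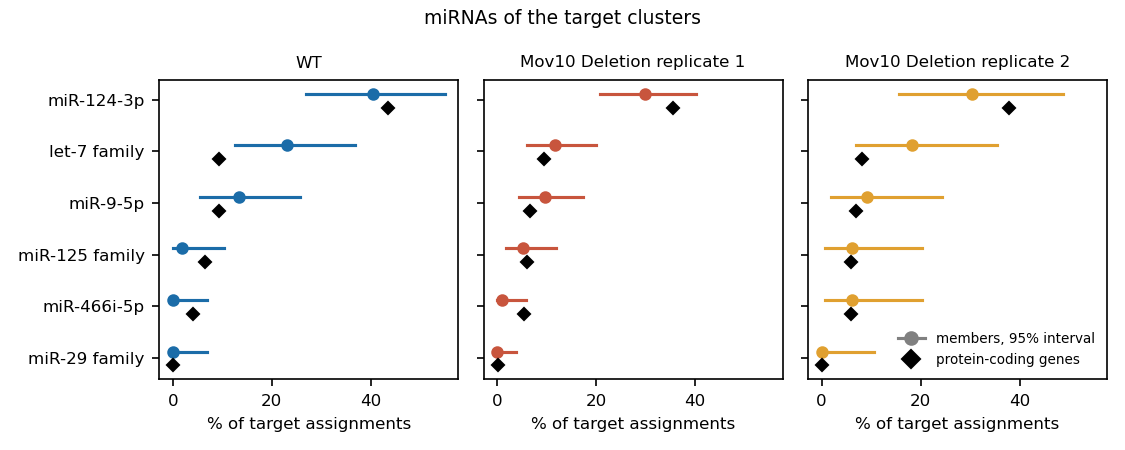
Share of listed target assignments (x axis, %) taken by 6 miRNAs or families in the 87 genes (circles with 95% Clopper-Pearson intervals) and in all protein-coding genes (diamonds), by library. The miR-124-3p diamonds lie inside the intervals, and the miR-29 circles are at 0.

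Among the fibrillar collagens, Col1a1, the α1 chain of collagen I, had the most regular target. miR-124-3p scored 21.4 in WT, 17.9 in replicate 1 and 7.17 in replicate 2 at 1172 to 1175 nt from the gene end. The AGO2 cluster over it was not enriched in any library, with log2 1.38, 1.06 and 1.86 from 37 IP reads over 12, 18 over 15 and 35 over 23. GTGCCTT is not in the terminal 3'UTR of Col1a1. Col1a2 had miR-124-3p in replicate 1 alone, 10245 nt from its end, and Col3a1 had no target in any library. Col1a1, Col1a2 and Col3a1 were enriched in replicate 1 alone, at log2 4.50, 4.80 and 3.97 and at other places.

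Of the glycoproteins, Tnc, tenascin-C of the radial glial matrix, carried miR-9-5p 560 to 565 nt from its end with scores of 7.78, 5 and 3. The AGO2 cluster there had log2 3.34 in WT and was under the limit in the Mov10 Deletion libraries, at 1.95 and 1.93. The miR-9-5p match lies 584 nt from the end, inside the target cluster. Near the very end, miR-181b-5p scored 3.66 in WT and miR-181a-5p scored 6.75 in replicate 1. Fibronectin, Fn1, had a miR-124-3p target in WT alone (score 4.98, 552 nt from the end) and an enriched cluster in replicate 2 alone (log2 4.25). Nid1 and Nid2 reached log2 3.12 in replicate 1 and 3.25 in replicate 2, in no case past the p limit. Hspg2, perlecan, had miR-124-3p in both Mov10 Deletion libraries with scores of 3.81 and 3.35, at places 66546 and 19467 nt from the end, and an enriched cluster in replicate 1 alone, at log2 3.26. Nid1 and Nid2 had miR-124-3p in replicate 1 alone, with scores of at most 4.55. Itga3 carried a low miR-124-3p score at the same place, 3.85 in WT and 3.85 in replicate 1, over clusters of log2 1.34 and 4.26, with its match 50 nt from the gene end. Itga7 had the match too, with a WT score of 5.66. Itga6, the α6 subunit of laminin receptors, had no target in WT. Its miR-124-3p scores were 6 in replicate 1, at 66 nt from the gene end, and 4.06 in replicate 2, at 1556 nt, so the libraries did not meet. Itgb8, a β subunit that binds latent TGF-β, had miR-106b-5p, miR-17-5p and miR-181a-5p 12 nt from its end in replicate 1 alone, with scores of at most 4. Col25a1 had miR-124-3p in WT alone, with scores of 3.29 to 8.31, and 5 assignments of other miRNAs in replicate 1, the nearest 132091 nt from the end.

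The miR-29 family was not listed on any of the 87 genes in any library. The family is rare in these data: it took 9 assignments in protein-coding genes in WT, 32 in replicate 1 and 17 in replicate 2, or 0.0441, 0.112 and 0.136% of all. At those shares the 52, 94 and 33 assignments on these genes would hold 0.0229, 0.105 and 0.0449 miR-29 assignments, so the absence is not a result about these genes, and scores under 3 are not in the lists. The letters of the miR-29 match were nonetheless frequent. TGGTGCT, searched on the transcript strand of 85 terminal 3'UTRs, was found 52 times in 31 genes, and 45 of these lay in 25 of the 43 collagen 3'UTRs searched. Windows of 100 nt held it in 3.17% of cases (46 of 1450), against 0.993% of such windows over 20968 protein-coding genes. The miR-124-3p match was found 20 times in 16 genes, and in 1.31% of windows against 0.922%.

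AGO2 clusters covered 5 of the 52 miR-29 matches in WT, 4 of them enriched, and 10 in each Mov10 Deletion library, 2 of them enriched. The enriched ones in WT were in Col4a1, Col4a2 (2) and Itgb1, with log2 5.23, 4.08, 4.61 and 3.30. In Col4a1 the match lay under log2 3.96 in replicate 1 and 3.47 in replicate 2, and the second Col4a2 match under 6.01 and 4.49. A miR-124-3p match lies in the same WT cluster of Col4a1, and a miR-9-5p match in the same Mov10 Deletion cluster of Col4a2. Of the 20 miR-124-3p matches, 7 were covered in each library, and 6, 4 and 3 lay in a target cluster of miR-124-3p. Conversely, of the 14, 9 and 7 miR-124-3p target clusters in terminal 3'UTRs, 6, 4 and 3 held the 7-letter match. For Col1a1 and Col3a1, no AGO2 cluster lay over the miR-29 match in any library.

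Genes that act with this matrix were read from a list of 51. Among 46 with a cluster in WT, 13 were enriched, and 32 of 47 and 25 of 47 in the Mov10 Deletion libraries, against the same backgrounds of 20.5, 45.4 and 35.7%. The adhesion partners gave 8 of 14, 13 of 14 and 10 of 14. Clusters per gene of this list ran in WT from 2 (Ilk) to 943 (Dab1), among genes with a cluster. Whether gene length or the number of clusters sets these shares was not tested, and the lists were chosen with earlier results of these data known. Their list holds genes that connect integrins to actin, but also Dab1, Dag1, Fyn and Src. The proteoglycan list, which also holds Reln and Sparc, gave 2 of 12, 5 of 12 and 6 of 12. The collagen processing genes gave 2, 7 and 4 of 13, and the matrix proteases and their inhibitors 1 of 7, 7 of 8 and 5 of 8. Serpinh1, the collagen chaperone, had the one miR-29 target among them, for miR-29a-3p in WT with a score of 5, 653 nt from its gene end at chr7:99346028-99346082.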

How the data were processed

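AGO2 chimeric eCLIP of P0 mouse brain gave 1 WT and 2 Mov10 Deletion IP libraries with files. Input libraries were not analysed here on their own. The authors removed UMIs with UMI-tools 1.1.1, trimmed with cutadapt 3.2, mapped to mm10 with STAR 2.7.7a, matched miRNAs with Bowtie 1.2.3 and called clusters with CLIPper (tool versions from the submitters' processing notes). The authors deposited AGO2 clusters with a log2 ratio of IP over size-matched input and a −log10 p, which stops at 400, and target clusters with a miRNA name and a score, listed from 3 upwards and not defined in the sources used here. Read depth per library is not given in these files, and ratios from few reads are imprecise. The Mov10 Deletion libraries came from separate brains.

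A cluster was assigned to a gene when it lay whole within it on the same strand. Strand came from the RefSeq promoter table for 62 of the 87 genes and from GENCODE for 25. IP and input reads were inferred as the whole numbers giving each deposited ratio and p (tolerance 0.001 in −log10 p). Only inputs of 1 to 60 reads were tried. An empty input that had been counted as 1 read could therefore not be told from a true 1. Intervals are 95% Clopper-Pearson and cover counting error only. The assignment and the read inference were tested on simulated data. Seed matches were searched in GRCm39, and gene ends were compared with mm10 by finding the RefSeq promoter sequences of both sides at distances equal within 10 nt, so no coordinate was converted. Col4a6 and Lama3 could not be checked this way. Python 3.11.15, numpy 2.4.6, pandas 2.3.3, scipy 1.17.1 and matplotlib 3.10.9 were used.

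Genes were named if they had a miR-124-3p or miR-29 target, were enriched in all 3 libraries, ranked among the highest enriched in one genotype only, or had most target assignments, and 13 matrix genes were always named. The members and lists were chosen with earlier results of these data known. Alternatives were other limits on p, ratio, width, reads, score and distance, and leaving out each Mov10 Deletion library.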

Additional observations from a re-analysis of the deposited data

How the results depend on the processing

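No paired analysis was possible because there was 1 WT library. Of 101 alternative values, 73 stayed close to the value reported and 28 moved. The 73 include the miR-29 shares, which were 0 and could not change when assignments were only removed. The tally therefore overstates how many results were put to a test. With a −log10 p of at least 5, genes with enriched clusters numbered 17 in replicate 1, 9 in replicate 2, 8 in both, 2 in both but not WT (Col25a1, Tnr) and 1 in WT alone (Lama3). With at least 16 inferred IP reads they numbered 14, 6 and 5, with 4 in all 3 libraries (Col4a1, Col4a2, Itgb1, Lamc1) and 1 in the Mov10 Deletion pair but not WT. With a log2 limit of 2, Col25a1 and Tnr joined the genes enriched in all 3 libraries. With clusters at least 20 nt wide, 1 gene was enriched in WT alone. With either Mov10 Deletion library left out, the remaining one gave 22 to 33 genes for Mov10 Deletion, 14 to 25 of them not enriched in WT. The lower figures are those of replicate 2 by itself. With adjoining enriched clusters joined, a choice made after seeing the data, replicate 1 had 91. With a target score of at least 5, genes with a target numbered 8, 15 and 7. In clusters with a single miRNA, miR-124-3p took 57.7% in WT. Within 500 nt of the gene end lay 7.41% (WT) and 2.76% (replicate 1) of enriched clusters, and 17.6, 10.3 and 7.69% of target clusters (WT, replicate 1, replicate 2). Within 2000 nt lay 17.9 and 18.8% of enriched clusters in the Mov10 Deletion libraries, and 61.8% (WT) and 30.8% (replicate 1) of target clusters. Fewer clusters pass each stricter limit by construction. No other cause was tested.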
